A study of Homo sapiens with 4 samples.

Results

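The genes described here are 10 immediate early genes: the AP-1 subunits FOS, FOSB, FOSL1, FOSL2, JUN, JUNB and JUND, the zinc finger factor EGR1, and the growth factor-induced genes IER3 and PHLDA1. They were chosen by name, and every probe set whose platform annotation gives exactly one of these symbols was taken, which made 27 of the 54675 probe sets on the array and 10 of the 19775 genes tested. The probe set of highest average signal on the 4 arrays, called the brightest below, stands for its gene. RNA came from CAPAN2, an established human cell line from pancreatic ductal adenocarcinoma, with 2 arrays labelled LLGL1 shRNA and 2 labelled control. The first group was transduced with lentivirus carrying shRNAs against LLGL1, a homologue of the fly cell polarity gene lethal giant larvae, and the second with control lentivirus. Both groups grew in DMEM with 10% serum and were exposed to virus overnight with 8 µg/ml hexadimethrine bromide. The sample titles abbreviate the groups as siLLGL1 and NC, whereas the other labels name lentivirus and shRNAs. How long after transduction RNA was taken is not stated in the labels. The comparison asked how depletion of LLGL1 changes gene expression in these cells, and the labels call the arrays of a group biological replicates without naming separate cultures.

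Immediate early genes are transcribed soon after a growth factor or stress signal without new protein synthesis. ERK and related kinases act on them through the ELK factors and SRF, which bind a CArG box in promoters such as those of FOS and EGR1, and through CREB. FOS-family proteins pair with JUN-family proteins by leucine zippers to form AP-1, which binds its own site in many genes of growth, invasion and inflammation, while EGR1 binds a GC-rich site and induces its NAB corepressors. In pancreatic cancer cells ERK output is known to keep several of these genes expressed, FOSL1 and PHLDA1 among them.

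The stretches upstream of EGR1 and PHLDA1, the genes that passed the test of expression, are shown with that of FOS, the founding member of the family. They were searched for known kinds of control site. Each is the 250 bases before the annotated gene start, 5′ to 3′, from RefSeq on GRCh38.p14. Capitals mark a match to one of the searched motifs on either strand: the AP-1 site TGACTCA, the CRE TGACGTCA, the EGR site GCGTGGGCG and the CArG box. EGR1 lies at chr5:138465229-138465478 on the plus strand, PHLDA1 at chr12:76031777-76032026 on the minus strand and FOS at chr14:75278578-75278827 on the plus strand.
EGR1: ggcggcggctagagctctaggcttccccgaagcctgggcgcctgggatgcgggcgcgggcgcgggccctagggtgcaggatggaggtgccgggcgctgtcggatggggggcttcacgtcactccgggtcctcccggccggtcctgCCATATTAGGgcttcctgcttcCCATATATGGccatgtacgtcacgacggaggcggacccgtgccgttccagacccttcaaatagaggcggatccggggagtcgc
PHLDA1: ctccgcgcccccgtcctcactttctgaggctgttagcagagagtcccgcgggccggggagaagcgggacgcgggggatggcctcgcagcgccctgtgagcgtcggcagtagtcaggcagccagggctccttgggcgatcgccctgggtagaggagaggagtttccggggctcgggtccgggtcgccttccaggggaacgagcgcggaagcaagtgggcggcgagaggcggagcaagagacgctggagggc
FOS: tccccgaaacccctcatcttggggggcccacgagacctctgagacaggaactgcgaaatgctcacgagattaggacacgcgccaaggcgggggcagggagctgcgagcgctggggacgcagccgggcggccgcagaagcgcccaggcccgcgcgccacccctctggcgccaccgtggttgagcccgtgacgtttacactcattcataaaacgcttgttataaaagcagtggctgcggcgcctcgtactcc
EGR1 held 2 CArG boxes, CCATATTAGG beginning 105 bases and CCATATATGG beginning 83 bases before the start. No searched motif was in the PHLDA1 or FOS windows, which says only that these letters are not within these 250 bases. Windows of this length were available for 8 of the 10 genes, and besides EGR1 only JUND held a match, a CRE beginning 200 bases before its start. Among 35116 such windows of all genes, 1.16% held a CArG box, 1.65% the CRE, 4.2% the AP-1 site and 0.72% the EGR site.

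The arrays had median log2 signals of 2.95 to 2.98, correlated across all probe sets at r = 0.997 within each group, and at 0.993 to 0.994 between groups, over probe sets that are not independent replicates. The targeted transcript was not measurably lower: the brightest LLGL1 probe set read 6.73 and 6.71 on the arrays labelled LLGL1 shRNA, against 6.83 and 6.86 on the control arrays, a log2 difference of -0.12 (95% interval -0.27 to 0.02, limma adjusted p = 0.22). All directions below are therefore those between arrays as labelled. All 8 markers of pancreatic ductal epithelium lay above the array median on every array, and 3 of them passed limma's test, KRT7 higher and KRT19 and CDH1 lower. Of the markers of other cell types, fibroblast (5 measured), immune (3) and endothelial (4), none passed the test. Among them 1 fibroblast, 1 immune and 2 endothelial markers also lay above the array median on every array. Summed log2 signals of the fibroblast markers were 12.8 to 13.6 on the arrays labelled LLGL1 shRNA and 13.1 on both control arrays, those of the immune markers 7.68 to 8.00 against 7.73 to 8.07, and those of the endothelial markers 9.65 to 10.1 against 9.54 to 9.74. The 3 probe sets for 18S ribosomal RNA averaged -1.97 log2 units below control on the arrays labelled LLGL1 shRNA, and the 24 for poly-A spike RNAs averaged -1.14. The part of that difference in the gene results was not tested.

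PHLDA1 and EGR1 were lower on the arrays labelled LLGL1 shRNA, 1.92-fold and 1.63-fold, and none of the AP-1 subunits passed the test in its brightest probe set. Of the 10 genes, 2 passed limma's test lower and 0 higher at an adjusted p below 0.05, where 3.07% of all genes tested passed lower and 3.21% higher. Without adjustment, JUN, JUND and IER3 also had a p below 0.05, where 5565 of all 19775 genes had one. The arrays of the groups did not overlap for 8 of the 10 genes, 6 of them lower and 2 higher, where 24.7% of all genes were lower and 27.7% higher without overlap. The median log2 difference of the 10 genes was -0.09, and that of all genes 0.01. Because signals of different probe sets are not on a common scale, levels are compared here only between arrays.

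**Figure D1:**
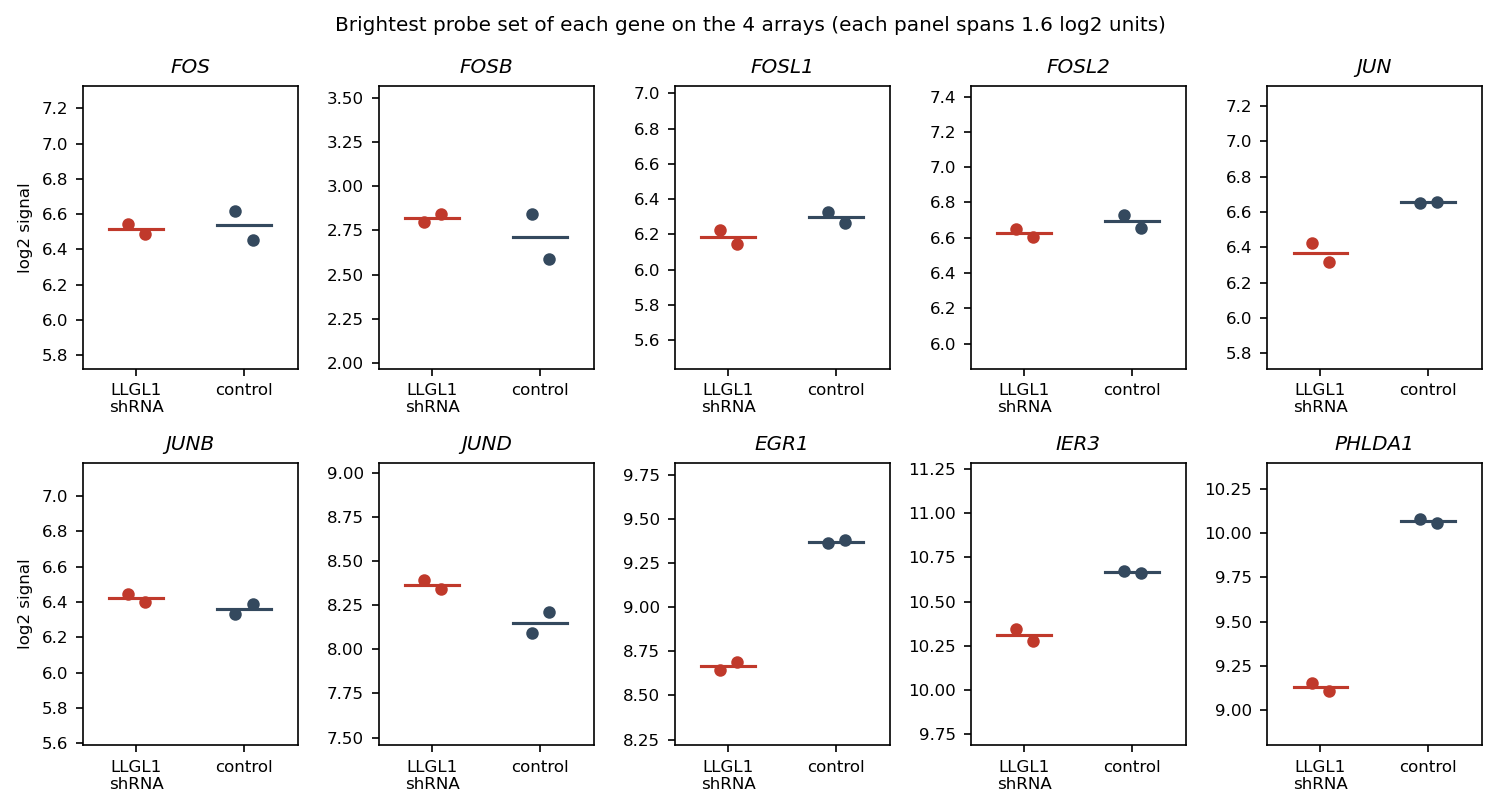
Log2 signal (vertical axis) of the brightest probe set of each of the 10 genes on the 2 arrays labelled LLGL1 shRNA (red) and the 2 control arrays (dark), with horizontal lines at the group means. Each panel has its own level but spans the same range of log2 units. PHLDA1, EGR1, IER3 and JUN sat lower on the arrays labelled LLGL1 shRNA, whereas FOS and FOSB overlapped between the groups.

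EGR1, a zinc finger transcription factor and the best known member of the EGR family, read 8.65 and 8.69 on the arrays labelled LLGL1 shRNA, against 9.36 and 9.38 on the control arrays. The gap between the groups was far wider than that between arrays of a group, with a log2 difference of -0.70 (SE 0.0523, limma adjusted p = 0.0286). Its other probe sets moved the same way. The second brightest read 7.20 and 7.21 on the arrays labelled LLGL1 shRNA, against 7.66 and 7.73 on control, and the dimmest 5.94 and 5.86 against 6.42 and 6.48. All 3 were therefore lower without overlap, by -0.70, -0.49 and -0.55. In a test of all single-symbol probe sets one by one, the brightest passed (adjusted p = 0.0478) and the other 2 did not (0.0553 and 0.0548). In that test 0.83% of 41091 probe sets passed. Its promoter is the one above with a pair of CArG boxes.

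PHLDA1, a pleckstrin homology-like domain protein induced by growth factors and linked to cell survival, read 9.15 and 9.11 on the arrays labelled LLGL1 shRNA, against 10.08 and 10.06 on the control arrays. The log2 difference was -0.94 (SE 0.053, limma adjusted p = 0.0246), which ranked 160 by absolute size among the 19775 genes, where EGR1 ranked 325. PHLDA1 has 6 probe sets, of which 5 were lower without overlap. The probe set 217999_s_at read 5.93 and 5.88 on the arrays labelled LLGL1 shRNA, against 6.84 and 6.88 on control, a log2 difference of -0.95. That probe set and the brightest passed when probe sets were tested on their own (adjusted p = 0.0444 each). The other 3 that did not overlap differed by -0.40, -0.59 and -0.57 without passing, and the dimmest, 218000_s_at, by -0.07 with overlapping arrays. Averaged over its 6 probe sets PHLDA1 fell by 0.59 on the log2 scale (adjusted p = 0.0239), so the size of its fall depended on the probe set.

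IER3, an early response gene that modulates apoptosis and ERK and NF-kB signalling, has 1 probe set. It read 10.34 and 10.27 on the arrays labelled LLGL1 shRNA, against 10.67 and 10.66 on control, so the groups did not overlap. The log2 difference of -0.36 (95% interval -0.51 to -0.20) lay just outside the threshold, at a limma adjusted p of 0.0501. It passed under 5 of the 9 alternatives that kept all arrays, both scalings among them, with adjusted p from 0.000792 to 0.162 over these alternatives.

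**Figure D2:**
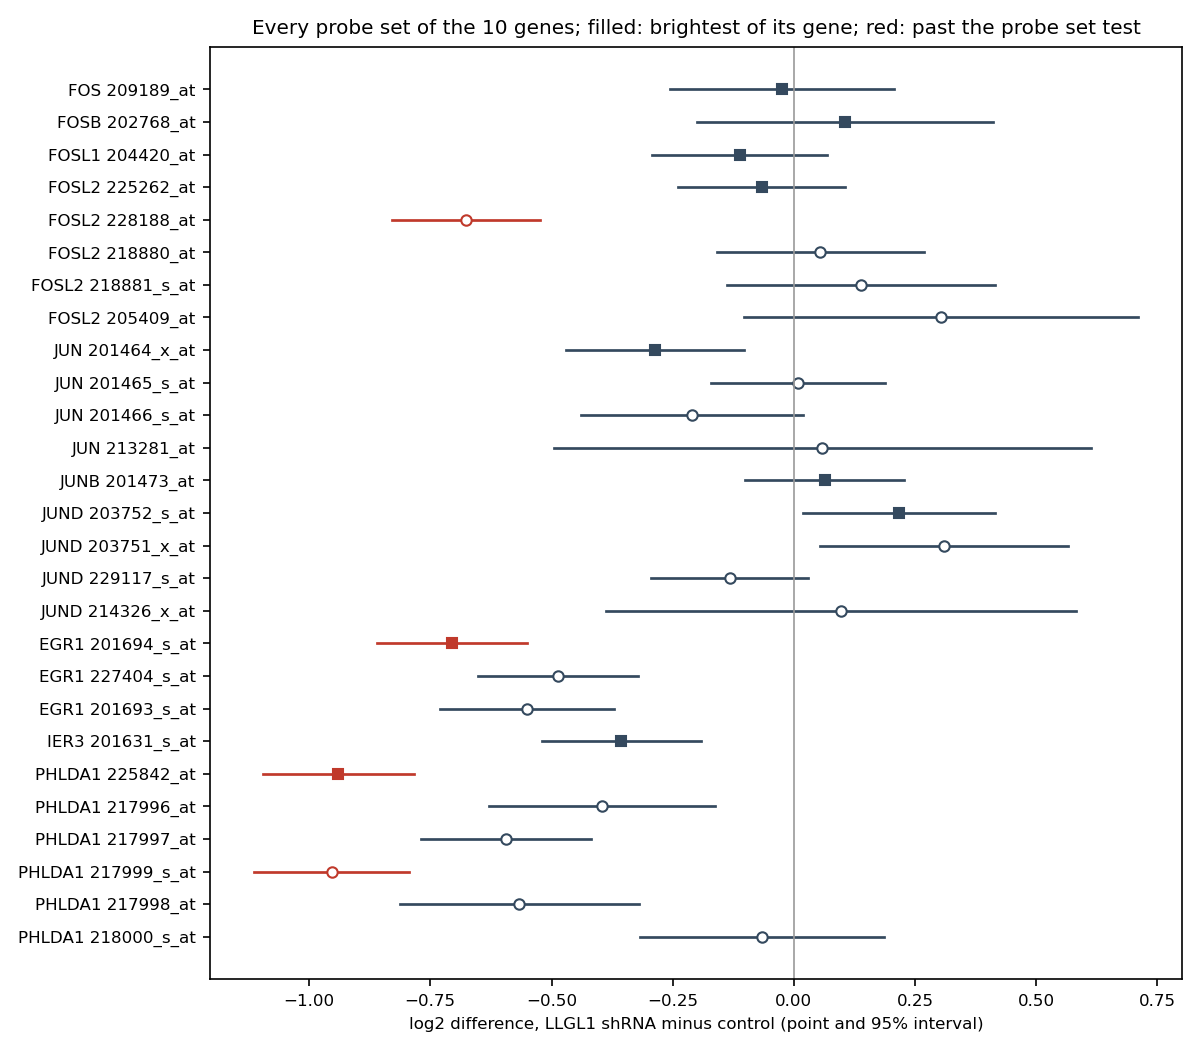
Log2 difference, arrays labelled LLGL1 shRNA minus control (horizontal axis), with the 95% interval from the limma fit over 41091 probe sets, for all 27 probe sets of the 10 genes. Filled squares are the brightest probe set of a gene, and red marks the 4 that passed that test. The probe sets of EGR1 and PHLDA1 lie on the lower side, while those of FOSL2, JUN and JUND lie on both sides of 0.

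Of the JUN family, which can form AP-1 by pairing with each other as well as with FOS proteins, JUN was on the lower and JUND on the higher side without either passing. JUN, the founding subunit, read 6.42 and 6.32 on the arrays labelled LLGL1 shRNA, against 6.65 and 6.66 on control, a log2 difference of -0.29 (95% interval -0.46 to -0.11, limma adjusted p = 0.0795). That probe set has the suffix _x_at, which marks probes that may also bind other transcripts. Its 3 weaker probe sets showed differences of 0.01, -0.21 and 0.06. Those of -0.21 and 0.06 read near or below the array medians, which limits them and any mean that includes them. As the mean of all 4 JUN differed by -0.11 (adjusted p = 0.394). JUND, the subunit that is expressed most steadily and often restrains growth, read 8.39 and 8.34 on the arrays labelled LLGL1 shRNA, against 8.09 and 8.21 on control. Its log2 difference was 0.22 (95% interval 0.03 to 0.41, limma adjusted p = 0.143). The 3 weaker JUND probe sets, which read near or below the array medians, showed 0.31, -0.13 and 0.10. Those of 0.31 and 0.10 also have the suffix _x_at. JUNB, an AP-1 subunit that can oppose JUN, read 6.44 and 6.40 on the arrays labelled LLGL1 shRNA, against 6.33 and 6.39 on control. The groups were separated by a log2 difference of only 0.06 (95% interval -0.09 to 0.22, limma adjusted p = 0.539).

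In the FOS family the brightest probe sets of all 4 genes differed little between the groups. FOS, the classic serum response gene, read 6.54 and 6.49 on the arrays labelled LLGL1 shRNA, against 6.62 and 6.46 on control, with overlapping arrays. The log2 difference was -0.02, with 95% limits of -0.25 and 0.20 (limma adjusted p = 0.892), an interval that does not reach the -0.70 of EGR1. Whether FOS and EGR1 differ in response was not itself tested, and the sign of the FOS value turned to 0.0019 after cyclic loess scaling. FOSB read 2.80 and 2.84 on the arrays labelled LLGL1 shRNA, against 2.84 and 2.59 on control. These readings are below the median of every array, so a difference in FOSB (0.11, 95% interval -0.19 to 0.40, limma adjusted p = 0.594) was not detectable at this signal. FOSL1, or FRA1, a FOS-family protein linked to invasion of carcinoma cells, read 6.23 and 6.14 on the arrays labelled LLGL1 shRNA, against 6.33 and 6.27 on control. The log2 difference of -0.11 (95% interval -0.28 to 0.06, limma adjusted p = 0.342) did not pass.

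FOSL2, or FRA2, a related subunit, gave different answers by probe set. Its brightest, 225262_at, read 6.65 and 6.60 on the arrays labelled LLGL1 shRNA, against 6.73 and 6.66 on control, a log2 difference of -0.07 (limma adjusted p = 0.545). The next brightest, 228188_at, read 5.64 and 5.66 on the arrays labelled LLGL1 shRNA, against 6.31 and 6.35 on control. That probe set was lower by -0.68 with a 95% interval of -0.83 to -0.52, and it passed the test of single probe sets (adjusted p = 0.0478), whereas the interval of 225262_at in the same test was -0.24 to 0.11. The other 3 differed by 0.05, 0.14 and 0.30 without passing, only the last, 205409_at, without overlap. As the mean of all 5 probe sets FOSL2 differed by -0.05 (adjusted p = 0.683). No file used here places these probe sets on the transcript, so which part of the FOSL2 message each reads is not known.

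Over the 27 probe sets, 15 were lower and 4 higher without overlap, where 24.7% and 23.4% of all probe sets tested were. Probe sets of one gene read the same transcript and are not independent, and PHLDA1 and EGR1 together gave 8 of the 15. When all 54675 probe sets were tested, unnamed ones included, 0 of the 27 passed in limma (lowest adjusted p = 0.0531), and 76 probe sets passed in all. The authors' deposited table, which lists 294 probe sets with a ratio of at least 2 in either direction, held 0 of the 27.

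**Figure D3:**
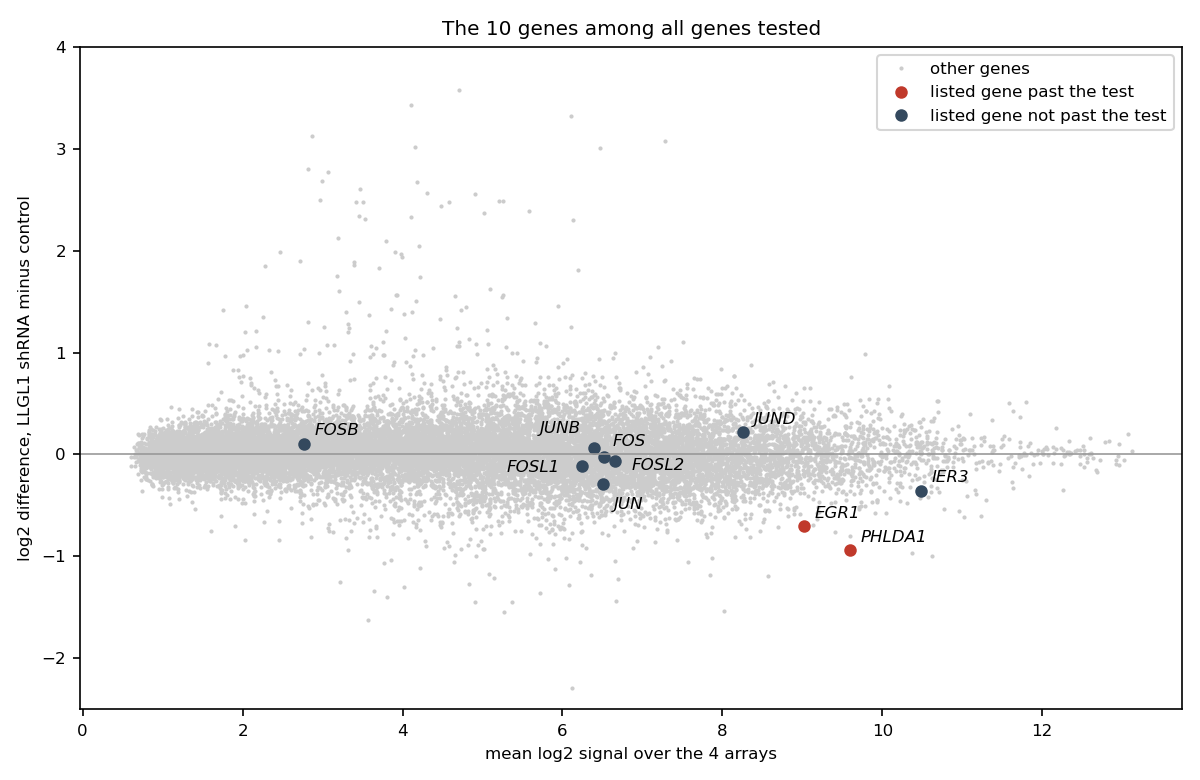
Mean log2 signal over the 4 arrays (horizontal axis) against the log2 difference, arrays labelled LLGL1 shRNA minus control (vertical axis), for the 19775 genes (grey) and the 10 immediate early genes (red, past limma's test; dark, not). EGR1 and PHLDA1 lie at the lower edge of genes of similar signal, while the FOS-family genes lie near 0.

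Related genes were taken from 6 lists with 92 measured genes. Of these, 9 passed lower and 12 higher (limma adjusted p below 0.05), where 3.07% and 3.21% of all genes did. Their median log2 difference was -0.09, against 0.01 for all genes. In the wider AP-1 family, 1 of 13 measured genes passed, where 6.28% of all genes passed in either direction. It was MAFF, a small MAF protein, which read 7.22 and 7.09 on the arrays labelled LLGL1 shRNA, against 7.83 and 7.72 on control (log2 -0.61, limma adjusted p = 0.0397). As the mean of its probe sets its call was lost (-0.45, adjusted p = 0.0682). Over the list 4 fell and 0 rose with trend and robust moderation, where 1984 and 1951 of all 19775 genes did. ATF3, a stress-induced partner of JUN proteins, differed by 0.13 (adjusted p = 0.297) and was, like MAF (-0.64, adjusted p = 0.0573), chosen for mention after its value was seen. None of the 4 measured EGR and NAB genes passed, though 2 were lower with trend and robust moderation. EGR3, a close relative of EGR1, read 2.71 and 3.24 on the arrays labelled LLGL1 shRNA, against 3.73 on both control arrays, a log2 difference of -0.75 (adjusted p = 0.106) at a low signal. NAB1 differed by -0.29 (adjusted p = 0.139), and NAB2, the NAB gene known to follow EGR1, by -0.0013, both named after their values were seen.

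Other immediate early genes went both ways: 6 of 28 rose and 2 fell, where 3.21% of all genes rose and 3.07% fell. CCN1, a matricellular protein induced by serum, read 7.10 and 7.09 on the arrays labelled LLGL1 shRNA, against 5.35 and 5.23 on control (log2 1.81, limma adjusted p = 0.0116). CCN2 rose by 1.56 (adjusted p = 0.0246), the MAP kinase phosphatase DUSP1 by 1.29 (0.0246) and MYC by 0.67 (0.0318). RHOB (0.53) and SGK1 (0.55) also rose, and the RNA decay factor ZFP36L1 (-0.56) and BTG1 (-0.41) fell, named after their values were seen. With the mean of their probe sets DUSP1 (0.37), ZFP36L1 (-0.20), RHOB (0.13) and BTG1 (-0.34) lost their calls. The median of the list was -0.13, on the other side from the larger number of calls. After median centring 8 of the list fell and 6 rose, where 1145 and 671 of all 19775 genes did. After cyclic loess 5 fell and 7 rose, where 902 and 1194 did. With trend and robust moderation 13 fell and 8 rose, where 1984 and 1951 did. In genes averaging at least 5 on the log2 scale 13 fell and 7 rose, where 2081 and 1858 of 8379 did. With the mean of probe sets 0 fell and 4 rose, where 586 and 624 of all 19775 genes did. Which direction held more calls therefore depended on the setting.

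Of 21 measured kinases and factors upstream of these genes, 1 fell and 1 rose, which is 4.76% each way and near the shares of all genes (3.07% and 3.21%). With trend and robust moderation 7 fell and 2 rose, where 1984 and 1951 of all 19775 genes did. In genes averaging at least 5 on the log2 scale 8 fell and 3 rose, where 2081 and 1858 of 8379 did. With the mean of probe sets none passed, where 586 of all 19775 genes fell and 624 rose. MAP2K4, a kinase that activates JNK and p38, fell by 0.37 on the log2 scale (limma adjusted p = 0.0467), and RPS6KA4, a nuclear kinase that acts on CREB and histone H3, rose by 0.41 (adjusted p = 0.0494). Both calls were lost with the mean of their probe sets (adjusted p = 0.0763 and 0.169). SRF itself differed by 0.25 (adjusted p = 0.196). ELK3, a ternary complex factor that partners SRF, differed by -0.40 (adjusted p = 0.0533), and both were chosen for mention after their values were seen.

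Of 17 measured known AP-1 targets, 4 fell and 1 rose, where 3.07% of all genes fell and 3.21% rose, and the list median was -0.08. The split was even, 4 and 4, with trend and robust moderation and in genes averaging at least 5 on the log2 scale. It was 4 lower and 3 higher after cyclic loess, where 902 of all 19775 genes fell and 1194 rose. With the mean of probe sets it was 3 lower and 2 higher, where 586 fell and 624 rose. Over all genes, 1984 of 19775 fell and 1951 rose with trend and robust moderation. In genes averaging at least 5, 2081 of 8379 fell and 1858 rose. The secreted phosphoprotein SPP1 fell by 0.93 on the log2 scale (limma adjusted p = 0.0246), the angiogenic factor VEGFA by 0.72 (0.0318) and the plasminogen activator PLAU by 0.68 (0.0288). The PLAU receptor PLAUR fell by 0.52 (0.033) and was named after its value was seen. IL6 rose by 2.39 (adjusted p = 0.01), from 1 probe set that read 6.79 and 6.75 on the arrays labelled LLGL1 shRNA, against 4.47 and 4.30 on control. With the mean of its probe sets VEGFA lost its call (-0.29, adjusted p = 0.0674), and SPP1 kept it at -0.53.

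Of 9 measured known EGR1 targets, 4 rose and 1 fell, where 3.21% of all genes rose and 3.07% fell. The median of the list was -0.14, on the other side from the larger number of calls, and the split depended on the setting. With trend and robust moderation 4 rose and 3 fell, where 1951 and 1984 of all 19775 genes did. In genes averaging at least 5 on the log2 scale 3 rose and 3 fell, where 1858 and 2081 of 8379 did. With the mean of probe sets 3 rose and 2 fell, where 624 and 586 of all 19775 genes did. TGFB1, the transforming growth factor, read 6.26 and 6.27 on the arrays labelled LLGL1 shRNA, against 5.13 and 5.21 on control (log2 1.09, limma adjusted p = 0.0227). Fibronectin FN1 rose by 0.90 (adjusted p = 0.0311) and the prostaglandin E synthase PTGES by 0.51 (0.0388). ICAM1 rose by 0.45 (0.0356) and was named after its value was seen. Tissue factor F3 fell by 0.70 on the log2 scale (0.0263). As the mean of their probe sets TGFB1 (0.60) and FN1 (0.52) rose by less and kept their calls, and ICAM1 lost it (0.34, adjusted p = 0.0577). Whether any of these genes is under EGR1 or AP-1 control in CAPAN2 cells was not tested.

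**Figure D4:**
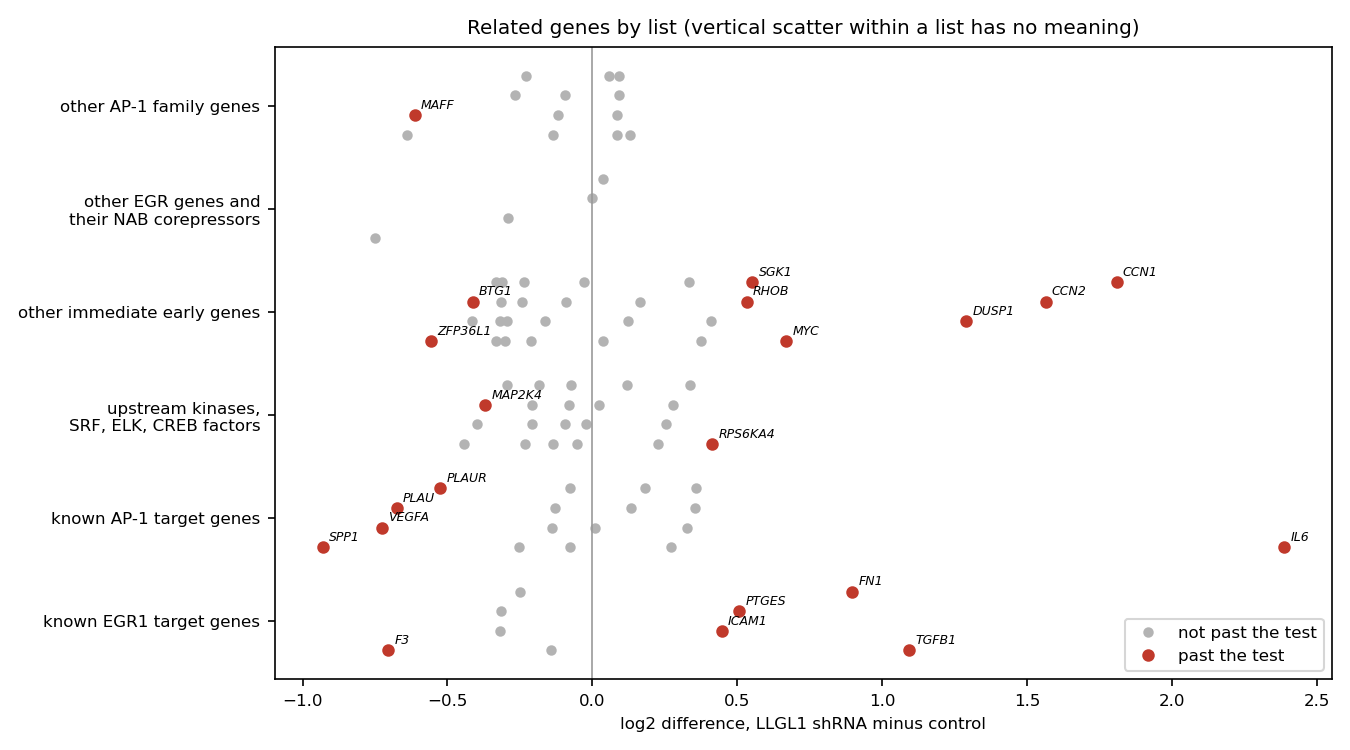
Log2 difference, arrays labelled LLGL1 shRNA minus control (horizontal axis), of each measured gene of the 6 related lists (rows), with genes past limma's test in red and named. Vertical position within a row only separates the points. Of the genes that passed in the fit shown, 4 of 5 known AP-1 targets lie on the lower side, and 4 of 5 known EGR1 targets and 6 of 8 other immediate early genes on the higher side, splits that changed under other settings.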

How the data were processed

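Biotinylated cRNA was made from 100 ng total RNA per sample, per the labels' protocols. The authors deposited log2 signals of 54675 probe sets on 4 arrays, made with RMA and Partek 6.6 (source: the submitters' processing notes). The background correction was not given in the sources used here. A table that the authors deposited gives an unadjusted p-value and a linear ratio per probe set, per the file headers. Its ratio matched group means of the log2 values within 1.68e-05 log2 units.

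Names came from the platform annotation of the array: 41097 carry 1 symbol, 1801 several and 11777 none. Probe sets with 1 symbol, without the 62 controls, gave 19775 genes by their brightest probe set. The whole table was fitted by limma 3.58.1 (lmFit, eBayes; R 4.3.3) with 2 residual and 1.94 prior degrees of freedom, and two-sided p-values were adjusted by Benjamini-Hochberg and called below 0.05. A second fit used each of the 41091 probe sets. The fit was also run on simulated data drawn from limma's own prior variances, which cannot show whether its assumptions hold for these arrays. Differences are arrays labelled LLGL1 shRNA minus control, on the log2 scale. The p-values measure the spread between arrays, which may be technical, and 2 arrays a group limit every value. An exact permutation test of 2 against 2 cannot go below 0.333.

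The 10 genes, the related lists and the motifs were chosen with earlier results of these data known. By rule, all 10 genes and LLGL1 were named. From each list the rule took the genes that passed, at most the 4 of largest absolute difference. Where none passed, it took the 1 of largest difference. Other list genes were named after their values were seen, as stated where they appear. Alternatives covered scaling, moderation, a mean log2 of at least 5, the mean of all probe sets, single probe sets, the replicate number as a block and leaving out each array.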

Additional observations from a re-analysis of the deposited data

How the results depend on the processing

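EGR1 and PHLDA1 were lower under every alternative, by log2 differences of -0.75 to -0.58 for EGR1 and -0.99 to -0.59 for PHLDA1 with all arrays kept. Both passed with either scaling, with trend and robust moderation, with the mean of all probe sets, in genes averaging at least 5 (log2) and when named probe sets were tested singly. Both lost their calls when all probe sets of the array were tested (adjusted p = 0.0597 and 0.0531), a setting chosen after seeing the data. Without any 1 array, EGR1 differed by -0.73 to -0.68 and PHLDA1 by -0.96 to -0.92. Such fits have 1 residual degree of freedom, and the lone array is assumed to vary as the other group does. In them limma passed 0 genes anywhere (3496 to 4546 at an unadjusted p below 0.05, lowest adjusted p 0.187 to 0.262), so every call of the 607 lower and 635 higher, of the 2 members and of the 9 and 12 related genes was lost, whichever array was left out.

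With the replicate block 0 genes passed in any set (4284 at an unadjusted p below 0.05), and EGR1 and PHLDA1 had an adjusted p of 0.151 each. Deviations of same-numbered arrays correlated at -0.13. With so few arrays a group, that value cannot decide whether the replicate numbers pair the arrays. The crossed pairing, added after seeing the data, also gave 0 calls (5520 unadjusted).

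Counts depended on the setting, lower and higher calls being given in that order, and the cause was not tested. Over all genes they were 1145 and 671 with median centring, 902 and 1194 with cyclic loess, 1984 and 1951 with trend and robust moderation, 2081 and 1858 in genes averaging at least 5 (log2) (fewer genes tested), 176 and 165 for named probe sets and 23 and 53 for all probe sets. Of the 10 genes, 4 passed lower and 1 higher with trend and robust moderation, where 1984 and 1951 of all 19775 genes did. The same 4 and 1 passed in genes averaging at least 5 (log2), where 2081 and 1858 of 8379 genes did. FOSB was too dim to be in that fit. The members that passed in both were PHLDA1, EGR1, IER3 and JUN, lower, and JUND, higher. With all probe sets 0 passed. Of the related genes, 17 and 12 passed with median centring, and 33 and 18 with trend and robust moderation. In genes averaging at least 5 (log2) the counts were 32 and 17. They were 3 and 6 for named probe sets, and 0 and 2 for all probe sets.

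The sign of FOS turned after cyclic loess (0.0019), without LLGL1_shRNA replicate 2 (0.0040) and without control_shRNA replicate 1 (0.0581), where the values without an array ran from -0.11 to 0.06. That of FOSB turned without control_shRNA replicate 2 (-0.0232), over a range of -0.02 to 0.23, and that of LLGL1 with the mean of its probe sets (0.0079). The other 8 genes kept their sign throughout. Dim signal limits FOSB and EGR3, and those weaker probe sets of JUN and JUND that read near or below the array medians.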
